A study of Mus musculus with 6 samples.

Results

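The mitochondrial carrier family is taken here as the genes whose symbols begin with Slc25a, although a few members have other symbols. It was followed in muscle from mice labelled SIRT6 knockout (KO) and wild type (WT). Every probe set whose single platform gene symbol was Slc25a followed by a number was kept, which gave 93 probe sets for 44 genes out of 45037 probe sets tested. Left out was 1 probe set whose annotation names Slc25a37 together with another gene. Muscle RNA of 6 mice, 3 with the SIRT6KO genotype and 3 wild type, all on the 129SvJ background, was hybridized to 1 Affymetrix Mouse Genome 430 2.0 array per mouse. The labels used here name neither the age of the mice nor which muscle was taken, nor the allele behind the KO label, so the extent of the deletion and the cells that carry it are unknown here. SIRT6 is a chromatin-associated deacylase that uses NAD, and the comparison asks which transcripts differ between muscles of the 2 labels.

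Mitochondrial carriers are small proteins of the inner mitochondrial membrane, each built from repeats of one domain, that exchange one metabolite for another between the cytosol and the matrix. In muscle they move ADP and phosphate in and ATP out, bring in fatty acids as acylcarnitines, run the malate-aspartate shuttle that carries reducing equivalents, and supply amino acids, iron and cofactors. A few members work elsewhere, in peroxisomes or in the outer mitochondrial membrane, and for several the substrate is not settled.

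No carrier transcript differed between the labels past the threshold. With limma on log2(intensity + 16), 0 of the 93 probe sets had an adjusted p under 0.05, against 4 of 45037 over the whole table (0.00888%; at a threshold of 0.01, 0.00444%), and the lowest adjusted p in the family was 0.511. At an unadjusted p under 0.05 there were 6 carrier probe sets, 3 higher and 3 lower in KO, where the whole table gave 8.56% (3.57% higher and 4.99% lower). Of the 93, 36 were higher and 57 lower on average in KO-labelled arrays; among all probe sets 48.4% were higher. The median log2 fold change of the family was -0.07, against -0.01 over all probe sets, and 87 of the 93 lay within 1.5-fold of no change. The KO and WT arrays did not overlap for 11 carrier probe sets, 3 with all KO arrays above and 8 with all KO arrays below, where the whole table gave 5.02% above and 7.29% below. Of those with a mean intensity of at least 16, 3 lay above and 3 below, against 5.83% and 9.4% of all probe sets that bright. Taking each of the 44 genes by its brightest probe set, 18 were higher and 26 lower on average, where 46.8% of 18193 genes were higher. Of the 44, 2 had all KO arrays above and 4 all KO arrays below, against 4.51% and 8.34% of all genes. These shares lie near the background. In whole muscle, fewer cells of a type and less RNA per cell cannot be told apart.

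Single arrays set much of the spread. WT replicate 1 gave the highest of the 6 readings for 39 of the 93 carrier probe sets (41.9%, against 32.9% of all probe sets), and its spiked-in hybridization controls read 1.9 times as bright as on WT replicate 2, while on the other arrays that ratio was 0.981 to 1.01. WT replicate 3 gave the lowest reading for 33 (35.5%, against 27.4%). The median log2 distance of the family from the WT mean was -0.15, 0.07 and -0.06 in KO replicates 1, 2 and 3, and 0.22, 0.03 and -0.24 in WT replicates 1, 2 and 3, so the KO arrays lay inside the range of the WT arrays. Without WT replicate 1, 46 of the 93 were higher in KO, and without WT replicate 3, 28 were. Leaving out an array moved the whole table too. Without KO replicate 1, 52.1% of all probe sets and 43 of the 93 were higher in KO. Without KO replicate 2, 44.3% and 30 were. Of the 93 probe sets 64 had a mean of at least 16, the offset, and 9 genes had none that bright. Xist, the RNA of the inactive X chromosome, read 715.4, 1165.7 and 1138.9 in KO and 31.3, 24.5 and 29.6 in WT at 1436936_s_at, while the Y-linked Eif2s3y read 1.1, 4.1 and 2.7 in KO and 77.1, 53.9 and 44.5 in WT, so that genotype and sex cannot be told apart in any comparison. Sirt6 itself read 22.6, 18.3 and 13.7 in KO and 23.2, 15.1 and 21.3 in WT at its only named probe set. Its position relative to the deletion is unknown here, and its readings therefore say nothing about the labels. The tissue markers Ckm, Acta1, Myh1, Myh2, Myh4, Mylpf, Tnnt3 and Mb read 1144.3 or more in every array.

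**Figure D1:**
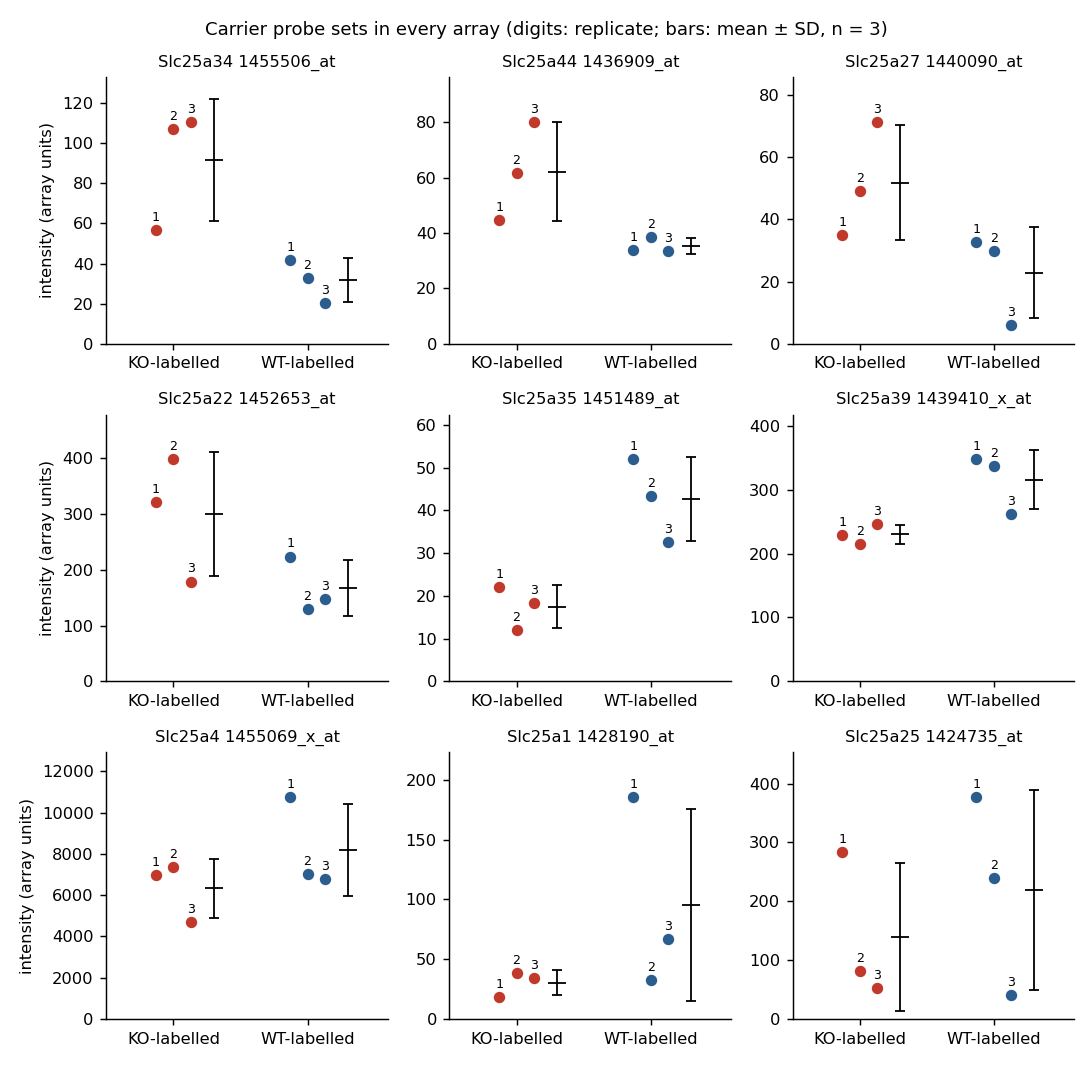
Intensity (array units, linear axis from 0) of 9 carrier probe sets in each KO-labelled (red, left) and WT-labelled (blue, right) array, with replicate numbers and mean ± SD (n = 3 each). Each gene is shown by its brightest probe set, except Slc25a44, shown by 1436909_at, its probe set with the lowest p. At the probe sets shown, Slc25a34, Slc25a44 and Slc25a27 had every KO array above every WT array and Slc25a35 and Slc25a39 every KO array below. Slc25a1 and Slc25a4 were highest in WT replicate 1 and Slc25a25 varied within both groups. At the brightest Slc25a44 probe set, 1433448_at, the groups overlapped.

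The carriers of adenine nucleotides and phosphate, which feed oxidative phosphorylation, did not differ past the threshold. Slc25a4 encodes ANT1, the ADP/ATP carrier of heart and skeletal muscle. Its brightest probe set, 1455069_x_at, read 6964.8, 7346.7 and 4674.9 in KO and 10769.8, 7028.8 and 6773.5 in WT, a fold of 0.776 (95% interval 0.512 to 1.18, limma adjusted p = 0.734). KO replicate 3 was the lowest and WT replicate 1 the highest, and the other 4 arrays were interleaved. All 4 Slc25a4 probe sets were lower on average in KO, with log2 fold changes of -0.37 to -0.45, and the groups overlapped in each. They measure the same RNA and are not replicates. Probe set 1424562_a_at read 5193.4, 5356.6 and 3238.7 in KO and 8303.8, 5511.2 and 5004.8 in WT, and 1434897_a_at read 3012.9, 2750.5 and 1894.1 in KO and 4640.7, 3137.5 and 2756.4 in WT. Both had the same lowest and highest array as the brightest. The dim one, 1424563_at, read 21.8, 18.7 and 15.5 in KO and 36.8, 38.7 and 20.4 in WT. Without WT replicate 1 the log2 fold change of 1455069_x_at was -0.15, and without KO replicate 3 it was -0.16.

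Slc25a5, the X-linked gene of ANT2, the ADP/ATP carrier of proliferating cells, had 8 probe sets, of which 6 were lower and 2 higher on average in KO, with log2 fold changes of -0.55 to 0.08. Its brightest, 1436874_x_at, read 231.7, 338.3 and 296.7 in KO and 425.5, 303.1 and 258.3 in WT (fold 0.892, 0.619 to 1.29). WT replicate 1 was the highest array in each of the 8, and the groups overlapped in each. Probe set 1434801_x_at read 240.2, 340 and 281.9 in KO and 429, 261.8 and 232.7 in WT, 1430542_a_at read 211.3, 285.6 and 275.1 in KO and 348.8, 264 and 216.6 in WT, and 1423772_x_at read 170.7, 243.3 and 200.7 in KO and 280, 161.5 and 164.9 in WT. In these 3 the KO arrays lay inside or close to the span of WT. The dimmer 1438546_x_at read 70.9, 120.3 and 100.8 in KO and 131.8, 89.2 and 59.3 in WT, 1438545_at read 38.7, 62.4 and 56.2 in KO and 77, 54.9 and 55.1 in WT, and 1438360_x_at read 29.7, 55.5 and 45.1 in KO and 65.1, 38.1 and 33.1 in WT. The lowest log2 fold change, -0.55, was that of 1438922_x_at, at 9, 34.4 and 14.7 in KO and 44.9, 33 and 25 in WT, where KO replicate 2 lay among the WT arrays. Slc25a5 has pseudogenes in the mouse, and 6 of the 8 probe sets end in _x_at, a suffix for probes that can also match other sequences, so these readings are uncertain. Slc25a31, the ADP/ATP carrier of testis, was dim, at 2.1, 1.7 and 0.5 in KO and 0.5, 0.2 and 2.9 in WT. Slc25a3, the phosphate carrier, read 3445.9, 4114.6 and 3106 in KO and 4763, 3820.7 and 3048.6 in WT at 1416300_a_at (fold 0.926, 0.666 to 1.29), with WT replicate 1 highest and the rest interleaved. Its dim probe set 1440302_at, at 16.2, 22.1 and 22.7 in KO and 14.3, 16.6 and 20.6 in WT, lay the other way on average.

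The ATP-Mg/phosphate carriers, most of them regulated by calcium, adjust the adenine nucleotide pool of the matrix. Slc25a25, a member of this group, varied more within each label than between them. At 1424735_at it read 283.1, 81.5 and 52.7 in KO and 377.6, 239.8 and 40.3 in WT, so that KO replicate 1 and WT replicates 1 and 2 were high and the other 3 arrays low. Its fold of 0.707 had an interval of 0.181 to 2.76. With WT replicate 1 left out its log2 fold change turned to 0.07. Slc25a25 probe set 1447856_x_at gave the same order within each label, with 69.3, 41.4 and 24.2 in KO and 76.9, 62.8 and 27.2 in WT, and 1454284_at read 25.5, 18.2 and 10.6 in KO and 24.1, 23.3 and 25.5 in WT. The remaining genes here, Slc25a23, Slc25a24 and Slc25a41 of the same group and Slc25a17, the ATP carrier of peroxisomes, had log2 fold changes of -0.10 to 0.29. Of the 9 nucleotide and phosphate genes, each taken by its brightest probe set, 3 were higher and 6 lower on average.

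Carriers of organic acids were lower on average in KO in 3 of 3 genes, and none passed. Slc25a1, the citrate carrier that exports acetyl units for fatty acid synthesis, read 18.4, 38.2 and 34 in KO and 185.9, 32.9 and 66.8 in WT (fold 0.485, 0.214 to 1.1, limma adjusted p = 0.614). WT replicate 1 alone stood far above the rest, and WT replicate 2 lay among the KO arrays. Without WT replicate 1 the fold was 0.713. Slc25a1 was chosen for mention after its values were seen. Of 7 adipocyte markers 5 were measured (Adipoq, Lep, Retn, Fabp4 and Cidec), and 0 of the 5 were higher on average in KO at their brightest probe sets. Of the 4 Fabp4 probe sets 2 were higher. Of the 5, 2 (Lep and Retn) had all KO arrays below all WT arrays, as had 8.34% of all genes by their brightest probe set. None was at 0, but Lep was dim, at 2.9 to 6 in KO and 7.1 to 19.1 in WT. The 5 markers summed to 2304 to 4075 in KO and 2992 to 5852 in WT. WT replicate 1, the highest array for Slc25a1, was also the highest for Adipoq, Retn and Fabp4. Adipoq read 131, 277.8 and 339.5 in KO and 606.9, 295.6 and 293.9 in WT. Lep was instead highest in WT replicate 2 (19.1) and Cidec in KO replicate 3 (132.3). WT replicate 1 was the highest array for 32.9% of all probe sets. The part of these markers in the Slc25a1 readings was not tested. Slc25a10, the dicarboxylate carrier, read 28.6, 41.1 and 28.3 in KO and 40.7, 38.7 and 35.4 in WT at 1416954_at. Slc25a11, the oxoglutarate/malate carrier of the malate-aspartate shuttle, read 841.6, 855.3 and 430.9 in KO and 778, 818.1 and 571.9 in WT (fold 0.95, 0.586 to 1.54). KO replicate 3 was the lowest and the other KO arrays the highest, so the groups overlapped across their range.

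Its partner in that shuttle, Slc25a12, encodes aralar, the aspartate/glutamate carrier of muscle and brain. Slc25a12 read 963.2, 1134 and 790.8 in KO and 1099.3, 1048 and 748.9 in WT at 1428440_at. The ranges of the 2 groups nearly coincided, with a fold of 1.0 and an interval of 0.714 to 1.4. Its dimmer probe sets read 40.5, 43.2 and 32.4 in KO and 50.7, 47.2 and 21.2 in WT (1436440_at), and 17.7, 32.8 and 26.6 in KO and 22, 31.1 and 6.6 in WT (1444489_at), with WT replicate 3 lowest in both. Citrin, the liver paralog encoded by Slc25a13, was dim, at 1.3, 4.1 and 3.7 in KO and 2.2, 3.7 and 1.8 in WT. Both enzymes of the shuttle in the matrix and both in the cytosol were also measured: Mdh1, Mdh2 and Got1 were lower and Got2 higher on average, with folds of 0.696 to 1.09, and 0 of 4 passed.

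Of the 9 amino acid carrier genes, 5 were higher and 4 lower on average in KO. Slc25a22, a glutamate carrier, read 320.4, 398 and 178.8 in KO and 223.6, 129.1 and 148 in WT (fold 1.68, 0.994 to 2.85, limma adjusted p = 0.587). KO replicates 1 and 2 lay above every WT array and KO replicate 3 lay below WT replicate 1. Slc25a18, the other glutamate carrier, was dim, at 1.2 to 14.1 in KO and 5.1 to 17.2 in WT. Slc25a44, which takes branched-chain amino acids into mitochondria, read 44.5, 61.5 and 80.2 in KO and 34, 38.7 and 33.4 in WT at 1436909_at (fold 1.49, 1.1 to 2.03, limma adjusted p = 0.544). Every KO array was above every WT array there. At its brightest probe set, 1433448_at, it read 41.7, 73.3 and 94.1 in KO and 52.6, 58.9 and 48.8 in WT, and KO replicate 1 was the lowest of all 6. The third, 1456465_at, read 28.5, 39.1 and 27.7 in KO and 24.4, 32.5 and 26.4 in WT, so 3 of 3 probe sets were higher on average and 1 of 3 separated the groups.

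The carriers of ornithine and basic amino acids, which link the matrix to urea and arginine metabolism, were lower on average in KO at their brightest probe sets. Slc25a29, a basic amino acid carrier, read 62.2, 74.6 and 81.4 in KO and 82.4, 110.4 and 82.8 in WT at 1438187_at (fold 0.825, 0.635 to 1.07, limma adjusted p = 0.672). The groups did not overlap, but KO replicate 3 and WT replicate 1 lay next to each other, and its 4 other probe sets overlapped. Of these, 1438188_x_at read 54.6, 78.6 and 79.4 in KO and 61.4, 89 and 82.5 in WT, and 1423980_at read 19.1, 17.1 and 18.1 in KO and 33.5, 25.7 and 5 in WT. Slc25a2, an ornithine carrier, was dim, at 9.1, 7 and 5.8 in KO and 16.5, 12.2 and 13 in WT (fold 0.779, 0.633 to 0.96, adjusted p = 0.562). All of its KO readings were below all of its WT readings and most lay under the offset, where the fold is understated. Slc25a15, the main ornithine carrier of liver, read 26.3, 27 and 18.1 in KO and 43.4, 37.8 and 24 in WT at 1420967_at. Slc25a38, which carries glycine for heme synthesis, read 36.7, 71.9 and 124.2 in KO and 57.6, 73.7 and 43.9 in WT, with KO replicate 1 lowest and KO replicate 3 highest.

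Slc25a20 exchanges carnitine for acylcarnitines and is the step of the carnitine shuttle that lies in the inner membrane. It read 212.9, 311.6 and 223.1 in KO and 281.3, 323 and 138.4 in WT at 1423108_at (fold 1.05, 0.623 to 1.77). The highest and the lowest array were both WT. Probe set 1423109_s_at gave 135.3, 197.2 and 153.1 in KO and 171.4, 164 and 99.3 in WT, again with WT replicate 3 lowest. Of the shuttle's other genes, the transferases Cpt1a, Cpt2 and Crat and the carnitine importer Slc22a5 had folds of 0.972 to 1.24, and 0 of 4 passed.

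**Figure D2:**
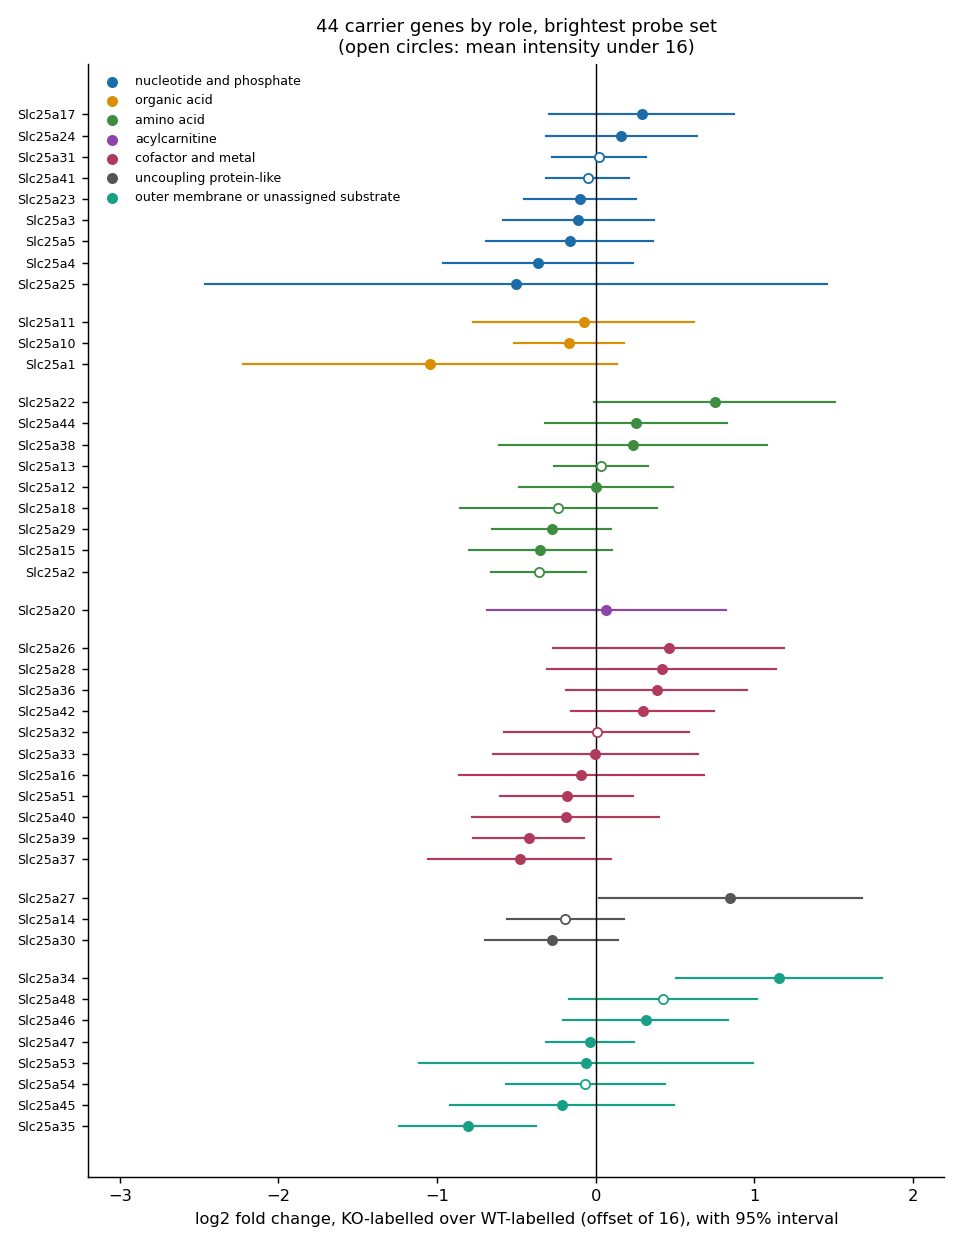
Log2 fold change (KO-labelled over WT-labelled, offset of 16) with its 95% interval for 44 carrier genes, each by its brightest probe set, grouped and coloured by role; open circles mark a mean intensity under 16. No gene passed after adjustment; Slc25a34 lies highest at 1.16, Slc25a1 lowest at -1.04, and the interval of Slc25a25 is the widest.

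Carriers of cofactors and metals had 5 of 11 genes higher and 6 lower on average, with none past the threshold. Slc25a39, which brings glutathione into mitochondria, was lower on average in KO at 5 of 5 probe sets. Its brightest, 1439410_x_at, read 229.3, 215.2 and 245.9 in KO and 347.9, 336.9 and 262.6 in WT (fold 0.746, 0.584 to 0.952, limma adjusted p = 0.562), and every KO array was below every WT array. At 1453111_a_at it read 87.3, 49.5 and 58.3 in KO and 121.8, 101.5 and 76.4 in WT, where KO replicate 1 lay above WT replicate 3. Probe set 1456176_x_at read 92.9, 110 and 85.7 in KO and 170.2, 137 and 78.6 in WT, and 1447783_x_at read 42.1, 56.7 and 42.2 in KO and 88.5, 72.6 and 48.1 in WT, with WT replicate 1 highest in both. Of the 4 Slc25a39 probe sets with a mean of at least 16, 1 separated the groups. That one, 1456176_x_at and 1447783_x_at end in _x_at, so they can also match other sequences. The remaining probe set, 1440118_at, was dim, with a mean of 3.08. All of them name the same gene and are not replicates. The Slc25a39 paralog Slc25a40 read 16.5, 17.4 and 8.4 in KO and 25.5, 23.3 and 8 in WT.

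The mitoferrins import iron for heme and iron-sulfur clusters. Slc25a37, mitoferrin 1, best known from red cell precursors, read 41.8, 23.5 and 20.2 in KO and 60.3, 44.8 and 32.1 in WT (fold 0.718, 0.482 to 1.07, limma adjusted p = 0.638). KO replicates 2 and 3 lay below every WT array and KO replicate 1 between WT replicates 2 and 3. Slc25a28, mitoferrin 2, the form of most other tissues, read 64.6, 119.7 and 170.4 in KO and 89.5, 82.8 and 66.4 in WT (fold 1.33, 0.81 to 2.2, adjusted p = 0.75). KO replicates 2 and 3 were above every WT array and KO replicate 1 below every one. Erythroid markers were low: Alas2 read 40.1, 47.5 and 18.5 in KO and 53.7, 56.5 and 40.9 in WT, Hba-a1, Slc4a1 and Epb42 reached 17.7 at most, and the 4 summed to 41.9 to 59.8 in KO and 49.5 to 87.4 in WT. Their part in the Slc25a37 readings was not tested. Of the listed genes of iron-sulfur and heme synthesis, Fech inserts iron into heme. Fech read 273.9, 218 and 241.5 in KO and 430.9, 384.9 and 280.6 in WT (fold 0.69, adjusted p = 0.562). Alas1, the first enzyme of heme synthesis outside red cells, read 203.8, 196.7 and 150.4 in KO and 311.3, 284.2 and 231 in WT (fold 0.684, adjusted p = 0.537). Both had every KO array below every WT array, while Iscu and Nfs1, of iron-sulfur cluster assembly, were higher on average (folds of 1.19 and 1.06), and Glrx5, of the same assembly, read 398.4, 397.9 and 261.1 in KO and 667.4, 528.7 and 392.2 in WT (fold 0.679, adjusted p = 0.595). Of the 5 genes measured in that list, each by its brightest probe set, 2 were higher and 3 lower on average. Of the 5, 2 had all KO arrays below all WT arrays, as had 8.34% of all genes by their brightest probe set. Other probe sets did not all follow: 1 of 4 Fech probe sets and 1 of 3 Nfs1 probe sets were higher on average in KO.

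Pyrimidine nucleotides are carried by Slc25a33 and Slc25a36. Slc25a33 read 85.9, 95.8 and 145 in KO and 140, 120.1 and 70.7 in WT (fold 0.999, 0.637 to 1.57), with the 2 groups fully interleaved. Slc25a36 was higher on average in KO at both of its probe sets with a mean of at least 16, and the groups overlapped in each. Of these, 1419657_a_at read 75.5, 107.8 and 109.1 in KO and 96.2, 72.7 and 48 in WT. The other, 1419656_at, read 30.7, 35.4 and 38.4 in KO and 31.3, 25.1 and 18.3 in WT. Its dimmer 1438520_at lay the other way, at 10.9, 7.6 and 9 in KO and 23.9, 15.3 and 12 in WT, with all KO arrays below all WT arrays. Slc25a36 was chosen for mention after its values were seen. The NAD carrier Slc25a51, the CoA carrier Slc25a42, Slc25a16, Slc25a26, which carries S-adenosylmethionine, and Slc25a32, of folate and FAD transport, had log2 fold changes of -0.18 to 0.46 at their brightest probe sets, and the groups overlapped in each. A dimmer Slc25a32 probe set, 1429462_at, had all KO arrays below all WT arrays, at 0.6 to 2.1 in KO and 3.8 to 5.3 in WT.

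Members close to the uncoupling proteins pointed both ways. Slc25a27, also called UCP4, read 34.9, 49 and 71.4 in KO and 32.8, 29.8 and 6.1 in WT at 1440090_at (fold 1.8, 1.02 to 3.2, limma adjusted p = 0.581). The groups did not overlap, although KO replicate 1 and WT replicate 1 were close and WT replicate 3 was far below. Its other 3 probe sets were dim, with readings of 1 to 17.8, and overlapped. Slc25a30 was lower on average at 5 of 5 probe sets, with log2 fold changes of -0.13 to -0.41 and no separation of the groups. Slc25a14, X-linked, was dim, at 1.2 to 3.7 in KO and 2.7 to 8.9 in WT. The uncoupling proteins proper belong to the family under other symbols, and 4 such genes were measured. Ucp3, the form of skeletal muscle, read 219.6, 105.3 and 91.1 in KO and 148, 166.8 and 72.5 in WT. Ucp1, the form of brown fat, read 129.9, 5.9 and 2.3 in KO and 877.2, 570.3 and 586.1 in WT (limma adjusted p = 0.436), with every KO array below every WT array, and limma refitted to the 22518 probe sets above the median level called it (adjusted p = 0.00237). Cidea, another gene of brown fat, read 164, 135.8 and 191.2 in KO and 824, 429.9 and 442 in WT (limma adjusted p = 0.384, and 0.0162 in the filtered fit), while Elovl3 and Dio2 overlapped, and the 4 genes summed to 189.6 to 317.6 in KO and 1033 to 1740 in WT. Their part in the carrier readings was not tested. The outer membrane homologs Mtch1 and Mtch2 had folds of 0.795 and 1.22.

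Slc25a34 and Slc25a35, paralogs whose substrates are not settled, lay apart from each other. Slc25a34 read 56.7, 107.2 and 110.8 in KO and 42, 32.9 and 20.2 in WT, or 91.6 ± 30.3 in KO and 31.7 ± 11 in WT (SD, n = 3 each). Every KO array was above every WT array, and KO replicates 2 and 3 were about equal. The fold was 2.23 with an interval of 1.42 to 3.5 (limma unadjusted p = 0.00422, adjusted p = 0.519). Slc25a35 read 22, 12.1 and 18.4 in KO and 52, 43.4 and 32.6 in WT, or 17.5 ± 5.01 in KO and 42.7 ± 9.72 in WT (SD, n = 3 each). Every KO array was below every WT array, with a fold of 0.572 and an interval of 0.424 to 0.772 (unadjusted p = 0.00325, adjusted p = 0.511). Each gene has 1 probe set, so no second one bears on either reading. When limma was refitted to the 22518 probe sets above the median level, which called 0.351% of them, 66 carrier probe sets were tested and 0 called, and Slc25a34 had an adjusted p of 0.0867 and Slc25a35 of 0.168. With KO replicate 1 left out, the filtered limma test called Slc25a34 (adjusted p = 0.00239) and Slc25a35 (adjusted p = 0.0463). These were 2 of the 66 carrier probe sets, among 1350 calls over the 22518 tested. With KO replicate 3 left out that test called Slc25a34 (adjusted p = 0.034), Slc25a1 (adjusted p = 0.0205) and Slc25a22 (adjusted p = 0.0212). These were 3 of the 66, among 312 calls over the 22518. With any 1 of the other 4 arrays left out the filtered test called no carrier.

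The remaining members of this set were less far from 0. Slc25a46, an outer membrane protein of mitochondrial fission, read 214.6, 278.1 and 348 in KO and 266.1, 220.1 and 176.2 in WT at 1448970_at, and both of its probe sets were higher on average. Slc25a45, Slc25a47, Slc25a48, Slc25a53 and Slc25a54 had log2 fold changes of -0.21 to 0.43 at their brightest probe sets. Both dimmer probe sets of Slc25a48 had all KO arrays below all WT arrays, at readings of 0.6 to 2.1 in KO and 1.5 to 2.6 in WT. The 3 X-linked members, Slc25a5, Slc25a14 and Slc25a53, had 11 probe sets, 2 of them higher and 9 lower on average (median fold 0.944), and the groups overlapped in each.

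RefSeq start-site windows on GRCm38.p6, from 250 bases before to 50 after the start, matched 34 of the 44 carrier genes with 43 windows. Those of Slc25a34, Slc25a39 and Slc25a4 are printed because they belong to the member with the highest fold, a member lower on average at 5 of 5 probe sets and the main ADP/ATP carrier of muscle, at chr4:141623785-141624084, chr11:102407468-102407767 and chr8:46211013-46211312, all on the minus strand and written 5′ to 3′. Capitals mark a match to AAGGTCA, a core element bound by estrogen-related receptors and other nuclear receptors, on either strand.
Slc25a34: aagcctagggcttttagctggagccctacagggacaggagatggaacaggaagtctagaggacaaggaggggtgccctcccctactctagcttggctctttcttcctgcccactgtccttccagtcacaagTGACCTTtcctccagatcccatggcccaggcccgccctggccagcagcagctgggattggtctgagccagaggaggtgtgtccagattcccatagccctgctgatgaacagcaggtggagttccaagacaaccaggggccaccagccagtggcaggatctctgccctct
Slc25a39: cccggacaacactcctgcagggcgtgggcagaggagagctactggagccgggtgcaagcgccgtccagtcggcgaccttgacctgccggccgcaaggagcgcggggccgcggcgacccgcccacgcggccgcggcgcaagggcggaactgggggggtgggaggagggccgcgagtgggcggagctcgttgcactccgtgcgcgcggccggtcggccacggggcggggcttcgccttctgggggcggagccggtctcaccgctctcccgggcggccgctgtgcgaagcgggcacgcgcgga
Slc25a4: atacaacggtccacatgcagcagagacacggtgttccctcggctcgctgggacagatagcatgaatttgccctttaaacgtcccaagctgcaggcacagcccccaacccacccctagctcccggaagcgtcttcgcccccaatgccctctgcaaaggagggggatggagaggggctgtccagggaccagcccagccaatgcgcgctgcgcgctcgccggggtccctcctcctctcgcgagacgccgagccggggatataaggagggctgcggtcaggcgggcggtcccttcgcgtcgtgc
The Slc25a34 window holds 1 such match, and it was the only 1 of the 43 carrier windows to do so (2.33%), against 4.72% of all 32851 windows. GTAAACA, a core bound by FoxO factors, was found on neither strand of the 43 windows and occurs in 3.65% of all windows; the palindrome of NRF1, searched without mismatches, was not found in the 43 either and occurs in 0.971% of all. With 1 match in all, no overlap between motifs arises in the carrier windows. The motifs were chosen after the values were seen. A match is a string of letters and not a shown binding site. The GC content of the 3 windows was 59%, 77.3% and 65.7% in the order printed.

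Probe sets of one gene did not always give one direction. Of the 23 carrier genes with several probe sets, 13 had all of them on the same side of 0, and of the 14 genes with several probe sets of mean at least 16, 10 did. Slc25a4, Slc25a10, Slc25a15, Slc25a25, Slc25a30, Slc25a39 and Slc25a53 were lower on average at every probe set, and Slc25a12, Slc25a20, Slc25a24, Slc25a42, Slc25a44 and Slc25a46 higher at every one. Slc25a3, Slc25a5, Slc25a26 and Slc25a51 were split among their brighter probe sets.

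**Figure D3:**
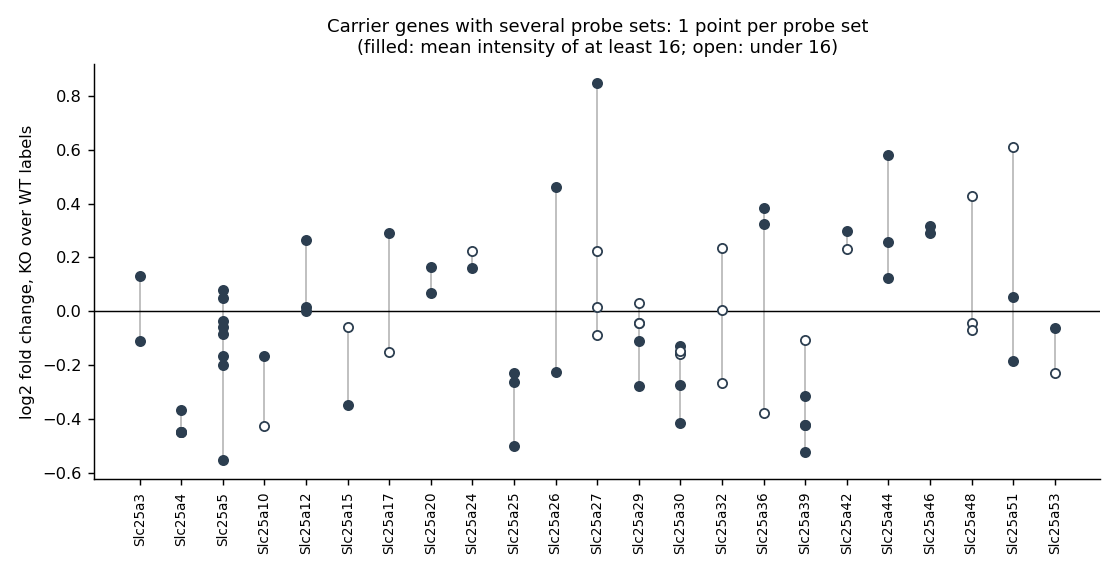
Log2 fold change (KO over WT labels, offset of 16) of each probe set of the 23 carrier genes that have several; filled points have a mean intensity of at least 16, open points less, and grey lines join the probe sets of a gene. The 4 Slc25a4 probe sets lie together at -0.37 to -0.45, the 8 of Slc25a5 run from -0.55 to 0.08, and Slc25a27 and Slc25a36 hold probe sets on both sides of 0.

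Genes that work beside the carriers were likewise not past the threshold: 0 members of any partner list passed, where 0.0055% of all genes taken by their brightest probe set did. The filtered fit called 1 of them, Ucp1. Partner genes are given by their brightest probe set, and the other probe sets of a gene did not always point the same way. Of the import machinery that inserts carriers into the inner membrane, 6 of 13 were higher and 7 lower on average (median log2 fold change -0.10, against -0.02 over all genes). Timm8b, a small chaperone of the intermembrane space, read 154.3, 115.5 and 114.5 in KO and 270.5, 221.7 and 173.1 in WT (fold 0.61, adjusted p = 0.524), and Timm13, from the same chaperone family, 173.9, 144.6 and 181.2 in KO and 259.3, 230.7 and 184 in WT (fold 0.762, adjusted p = 0.584). In both every KO array was below every WT array, whereas Timm22, the channel of the translocase, read 159.2, 121.9 and 68.1 in KO and 195.8, 168.9 and 144.6 in WT and overlapped. Of the 13, 0 had all KO arrays above and 2 all KO arrays below, where 4.51% and 8.34% of all genes by their brightest probe set did. Creatine and adenylate kinases, listed together as phosphate energy shuttles of cytosol and mitochondria, were lower on average in 6 of 6 genes (median log2 fold change -0.50). Ckmt2, the mitochondrial creatine kinase of muscle, read 2487.7, 2656.4 and 1772.6 in KO and 4191.3, 3264.6 and 2323.7 in WT (fold 0.718, adjusted p = 0.653), and as with Slc25a4 KO replicate 3 was lowest and WT replicate 1 highest. Ak3, the adenylate kinase of the matrix, read 131.2, 158.1 and 124.3 in KO and 251.8, 201.7 and 167.3 in WT (fold 0.696, adjusted p = 0.56), without overlap. Ak4, another matrix member, read 10.5, 19.7 and 7.6 in KO and 31.2, 20.4 and 28.6 in WT, also without overlap. These were 2 of 6 genes with all KO arrays below, against 8.34% of all genes. Ak4 was higher on average in KO at 2 of its 5 probe sets and Ak1 at 1 of 2.

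Other transporters of the inner membrane (11 of 14 listed were measured) had 3 of 11 genes higher and 8 lower on average. Sfxn1, a mitochondrial serine transporter, read 53.7, 60.4 and 56.9 in KO and 126.7, 90.7 and 74.6 in WT (fold 0.655, adjusted p = 0.529), and Letm1, an inner membrane protein of potassium and calcium exchange, 96, 95.9 and 63.6 in KO and 124.5, 123.6 and 97.5 in WT (fold 0.765, adjusted p = 0.612). Both had all KO arrays below all WT arrays. They were 2 of the 11, where 8.34% of all genes by their brightest probe set lay so. Of the 4 Letm1 probe sets 2 were higher on average in KO. The outer membrane channels Vdac1, Vdac2 and Vdac3 had folds of 0.884 to 1.12 and overlapped. Measures of mitochondrial content and its regulators went both ways, with 6 of 10 higher on average. Citrate synthase (Cs) had a fold of 0.971. Tfam, which packages mitochondrial DNA, read 118, 119.1 and 133.1 in KO and 108.7, 97 and 67.2 in WT at its brightest probe set. Every KO array was above every WT array there (adjusted p = 0.595), but only 1 of 2 Tfam probe sets was higher on average in KO. Ppargc1b, a coactivator of mitochondrial genes, read 111.9, 107.6 and 23.7 in KO and 177.7, 180.1 and 120.3 in WT, below WT in every array (adjusted p = 0.602). Of the 10, 1 lay above and 1 below, where 4.51% and 8.34% of all genes did.

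**Figure D4:**
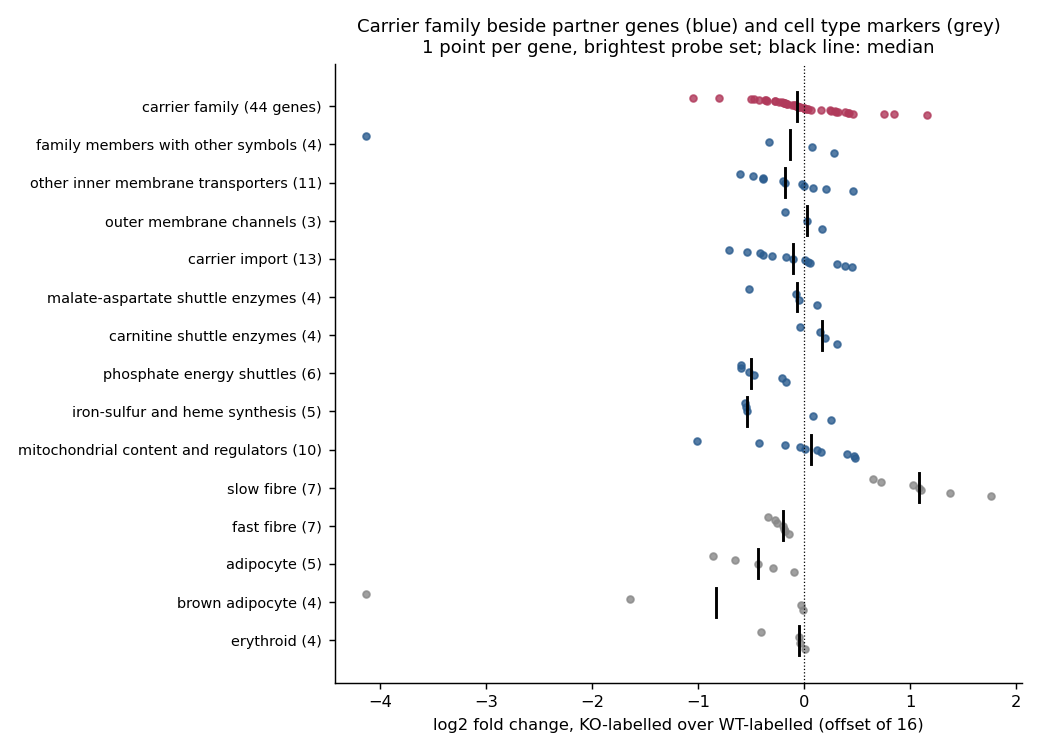
Log2 fold change (KO-labelled over WT-labelled, offset of 16) of the 44 carrier genes (red), of partner gene lists (blue) and of cell type markers (grey), 1 point per gene by its brightest probe set, with a black line at each median. The family's median lies at -0.06, that of the creatine and adenylate kinases at -0.50 and that of slow fibre markers at 1.08; no gene plotted passed the threshold in the fit to all probe sets.

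The summed levels of fibre and cell type markers also differed between arrays. Slow fibre markers were higher on average in 7 of 7 genes with 0 past the threshold, and their summed intensity was 1456 to 6264 in KO and 695.7 to 2085 in WT, with KO replicate 2 highest. Fast fibre markers summed to 66270 to 67670 in KO and 66070 to 108700 in WT, with WT replicate 1 alone above the rest. Endothelial markers summed to 276.2 to 518.8 in KO and 314.5 to 377.3 in WT, and macrophage markers to 156.5 to 291.1 in KO and 180.2 to 249.4 in WT. Of the 4 macrophage markers, Cd163 and Cd68 were higher on average (folds of 1.84 and 1.08) and Adgre1 and Csf1r lower (folds of 0.755 and 0.866), and Cd163 alone had all KO arrays above all WT arrays. No defining marker of these types was at 0. Their part in the carrier readings was not tested.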

How the data were processed

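Muscle RNA (TriPure extraction, biotin labelling, per the labels' protocols) was measured on 6 arrays. The authors deposited a linear intensity for each probe set in each array, and no label or header used here states how it was scaled or background-corrected. The labels call the samples biological replicates, and the number of arrays limits the precision. Of 45101 probe sets, 64 manufacturer's controls were left out. The others were tested as log2(intensity + 16) without further normalization, with limma 3.58.1 in R 4.3.3 (lmFit and eBayes, two-sided), Benjamini-Hochberg adjustment over all 45037 and a threshold of 0.05; all single adjusted p-values are from this fit or from the filtered one where named. Fold changes are on the log2(intensity + 16) scale and understate changes of dim probe sets. Probe sets of different genes were ranked by intensity only to choose the 6 members with the highest mean. Genes were named from the platform annotation, and all 44 carrier symbols matched RefSeq. The test was checked on simulated data.

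Values in every array are given for members that separate the groups at a mean of at least 16, the 8 with the lowest p, the 6 with the highest mean, a fixed set of 11 and, of partner lists, genes that separate the groups; others named were chosen after their values were seen. Members, lists and motifs were chosen with earlier results of these data known. Alternatives were offsets of 1 and 64, quantile normalization, median centring, a filter at the median level, a trended robust variance, a replicate block, a threshold of 0.01, leaving out single arrays and averaging a gene's probe sets. The filter combined with other settings was added after seeing the data.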

Additional observations from a re-analysis of the deposited data

How the results depend on the processing

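None of the 93 carrier probe sets with Slc25a symbols was called in limma under any planned setting, at thresholds of 0.05 and 0.01, whatever normalization, offset, variance model or array was changed alone. The filter combined with a left-out array, added after seeing the data, called 2 without KO replicate 1 (Slc25a34 and Slc25a35), among 1350 calls. It called 3 without KO replicate 3 (Slc25a1, Slc25a22 and Slc25a34), among 312 calls, and 0 without each of the others. Combined with quantile normalization or median centring, the filter called 0. Over all probe sets tested, 4 calls became 79 with the filter, which left 22518 probe sets. They became 15 with a trended robust variance, 11 with median centring and 9 with quantile normalization. There were 3 and 1 with offsets of 1 and 64, and 1 to 6 with an array left out. The cause was not tested. With the replicate block there were 0 calls over the whole table and 0 in the family. Same-numbered arrays did not deviate together (correlations of -0.00549, 0.0207 and -0.0401). The labels do not say whether the numbers pair samples, and these correlations cannot exclude a weak pairing. The family's median log2 fold change of -0.0668 lay between -0.133 and -0.0308 in the other settings on all arrays and between -0.176 and -0.00171 with an array left out, and the number of members higher in KO was 28 without WT replicate 3 and 46 without WT replicate 1. Of the 42 probe sets described by the naming rule, 502 recomputed log2 fold changes kept direction and call and 42, none of them called, changed sign. On all arrays these were Slc25a33 (0.0203 with median centring, 0.00151 with an offset of 1), Slc25a29 1423980_at (0.11 with an offset of 1, 0.00856 with quantile normalization), Slc25a12 1436440_at (-0.00301 with an offset of 64) and, with quantile normalization, Slc25a12 1428440_at (-0.073) and Slc25a5 1423772_x_at (-0.0136). With an array left out, Slc25a3 ran over -0.271 to 0.049 (1416300_a_at), Slc25a5 ran over -0.315 to 0.0279 (1436874_x_at), -0.226 to 0.194 (1434801_x_at), -0.237 to 0.0879 (1430542_a_at), -0.08 to 0.289 (1423772_x_at), -0.162 to 0.324 (1438546_x_at) and -0.182 to 0.181 (1438360_x_at), Slc25a11 ran over -0.238 to 0.243 (1426586_at). Slc25a12 ran over -0.17 to 0.132 (1428440_at), -0.253 to 0.169 (1436440_at) and -0.0374 to 0.492 (1444489_at), Slc25a13 ran over -0.00685 to 0.101 (1449481_at), Slc25a20 ran over -0.279 to 0.289 (1423108_at) and -0.0612 to 0.289 (1423109_s_at). Slc25a25 ran over -1.33 to 0.071 (1424735_at) and -0.557 to 0.0385 (1447856_x_at), Slc25a29 ran over -0.241 to 0.033 (1438188_x_at) and -0.414 to 0.204 (1423980_at), Slc25a33 ran over -0.251 to 0.172 (1424211_at). Dim probe sets and 3 arrays per label limit the precision: 29 of the 93 carrier probe sets had a mean under 16, where the offset compresses differences.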
